A study of Mus musculus with 6 samples.

Results

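The genes described here are 9 that mark Langerhans cells or carry antigen presentation by major histocompatibility complex (MHC) class II: Cd74, H2-Aa, H2-Ab1, H2-Eb1, Ciita, Ptprc, Itgax, Cd86 and Cd207. They were taken by symbol, and all 9 were found among the 24453 gene symbols of the deposited counts. RNA came from interfollicular epidermis, sorted from the back skin of newborn mice (postnatal day 0). The 3 control libraries carry the genotype label Control, and the 3 Eed conditional knockout (cKO) libraries carry Eed-/-. Eed is a subunit of PRC2, the Polycomb complex that methylates histone H3. The sort took EpCAM+ Sca1+ cells high in α6-integrin, and the stain that the labels describe had no antibody to CD45, the common surface protein of white blood cells. The sources used here do not give the driver of the deletion, the alleles of the control mice, the strain or the number of animals behind each library. P-values therefore measure the spread between libraries, which may be technical.

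Langerhans cells are the resident antigen-presenting cells of the epidermis. They descend from precursors that enter the skin before birth, and in mice most of their langerin (Cd207) and class II protein appears only in the days after birth. A class II molecule is a pair of chains, α and β, assembled on the invariant chain Cd74, which guides it to the compartments where peptides are loaded. The transactivator Ciita binds no DNA itself but is recruited to class II and Cd74 promoters by factors already bound there, and it switches these genes on together.

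Control libraries held 25481306 to 29998531 counts and Eed cKO libraries 20998149 to 27447679, and a floor of 3 counts equals 0.0958 to 0.145 CPM in a single library. Whole-gene counts of Eed, which check the deletion only in part, were at 41.0 to 53.1 CPM in control and 29.2 to 37.0 CPM in Eed cKO (edgeR adjusted p 0.252, not called). The ribosomal RNA symbol Rn45s took 2.18% to 5.24% of control counts and 6.78% to 7.26% of Eed cKO counts. CPM, the count scaled to a fixed library size, was normalised by edgeR's TMM factors throughout. Of 6 sort and keratinocyte genes, 1 (Epcam) was called, beside 4.21% of all tested genes. Trp63, a factor of basal keratinocytes, was at 1986 to 2099 CPM in control and 1419 to 1749 CPM in Eed cKO. Its groups did not overlap (edgeR adjusted p 0.266, not called). The 9 genes described here summed to 464, 108 and 148 CPM in control (libraries 1, 2 and 3, in that order throughout) and to 362, 62.4 and 102 CPM in Eed cKO. Library 1 of each group thus stood above the other libraries of its group, and the groups overlapped. In bulk RNA, fewer cells of a type and less RNA per cell cannot be told apart.

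Cd74 was the most abundant of the 9 genes and made up 39.3% to 66.9% of their summed CPM. Its level was 249, 60.1 and 75.8 CPM in control and 189, 24.5 and 68.5 CPM in Eed cKO. The first library of each group was the high one, and Eed cKO 2 was the lowest of all. Cd74 averaged 128 ± 105 CPM in control and 93.9 ± 84.9 CPM in Eed cKO (SD, n = 3 each). Cd74 shares 12 exonic bases with a microRNA gene annotated inside it.

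The α chain gene H2-Aa (chr17:34282744-34287823, GRCm38) was at 61.2, 10.3 and 9.72 CPM in control and 52.7, 10.99 and 13.4 CPM in Eed cKO. The β chain gene H2-Ab1 (chr17:34257689-34269419), whose product pairs with that of H2-Aa, was at 78.5, 12.8 and 28.7 CPM in control and 59.6, 16.6 and 10.4 CPM in Eed cKO. H2-Eb1 (chr17:34305867-34316674), a β chain gene of the second mouse class II molecule, was at 23.1, 5.56 and 3.63 CPM in control and 22.8, 3.41 and 2.85 CPM in Eed cKO. All 3 chain genes were highest in control 1 and next highest in Eed cKO 1. The α chain partner of H2-Eb1 is listed as H2-Ea-ps, a pseudogene in the reference, and it had 0 counts in all 6 libraries.

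The promoters of H2-Aa and H2-Eb1 are shown because these genes had the most similar library profiles of any pair among the 9, with a root mean square difference of 0.41 between log2 CPM profiles centred on each gene's mean. Class II promoters carry a Y box, which holds CCAAT on either strand and is bound by the factor NF-Y. The windows run from 250 bases before to 50 bases after the start site, are written 5′ to 3′ on the gene's strand from RefSeq (GRCm38.p6), and lie at chr17:34287774-34288073 (minus strand) and chr17:34305617-34305916 (plus strand). Capitals mark CCAAT or its reverse complement ATTGG.
H2-Aa: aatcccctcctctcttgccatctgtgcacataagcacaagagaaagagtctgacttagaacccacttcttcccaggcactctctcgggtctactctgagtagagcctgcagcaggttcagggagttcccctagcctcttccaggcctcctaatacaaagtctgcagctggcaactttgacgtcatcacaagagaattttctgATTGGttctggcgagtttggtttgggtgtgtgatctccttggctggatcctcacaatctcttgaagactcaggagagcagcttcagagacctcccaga
H2-Eb1: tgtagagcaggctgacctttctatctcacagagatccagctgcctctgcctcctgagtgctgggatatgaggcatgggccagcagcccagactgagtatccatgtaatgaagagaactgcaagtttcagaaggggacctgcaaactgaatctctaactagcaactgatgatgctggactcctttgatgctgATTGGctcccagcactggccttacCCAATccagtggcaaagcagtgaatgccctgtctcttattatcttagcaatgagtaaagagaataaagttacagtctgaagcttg
The motif starts at position -48 from the start site in H2-Aa and at positions -59 and -35 in H2-Eb1. Of 32851 promoter windows of 300 bases in the table, 37.4% hold the motif on either strand. Among the other members with a window, Itgax held 1 match, at position -178, and Ptprc and Cd207 held none. H2-Ab1, Ciita and Cd86 were not matched to a window.

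Ciita (chr16:10480059-10528418), the transactivator of class II genes, was at 9.35, 2.30 and 1.72 CPM in control and 3.17, 1.28 and 2.52 CPM in Eed cKO. Only control 1 stood apart from the other 5 libraries, and Eed cKO 1, which had high Cd74, was close to Eed cKO 3. Ciita counts relative to 1000 Cd74 counts were 37.6, 38.3 and 22.7 in control and 16.8, 52.4 and 36.7 in Eed cKO, so the lowest ratio was in Eed cKO 1. Ciita shares 329 exonic bases with Dexi on the opposite strand, and no source used here gives the strand setting of the counting.

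Ptprc (chr1:138062861-138175708) encodes CD45. It was at 28.0, 12.04 and 22.6 CPM in control and 24.6, 4.93 and 2.37 CPM in Eed cKO. Eed cKO 1 lay among the control libraries, and Eed cKO 2 and Eed cKO 3 lay below all of them. Its means were 20.9 ± 8.11 and 10.6 ± 12.1 CPM (SD, n = 3 each).

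Itgax (chr7:128129547-128150657) encodes CD11c, the integrin chain of dendritic and Langerhans cells. Its counts were 140, 70 and 56 in control and 204, 1 and 11 in Eed cKO, or 5.23, 2.24 and 2.19 CPM and 7.43, 0.0401 and 0.532 CPM. It held both the highest and the lowest library within Eed cKO, with a ratio of 185 between them, the widest among the genes with a count in every library. Cd86 (chr16:36603869-36666081), a costimulatory ligand for T cells, was at 9.08, 2.17 and 3.40 CPM in control and 3.35, 0.642 and 1.84 CPM in Eed cKO. For Cd86 control 1 was high, and Eed cKO 1 was level with control 3.

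Cd207 (chr6:83671215-83677857), the gene for langerin, the lectin that forms the Birbeck granules of Langerhans cells, was close to absent. It had 8, 1 and 0 counts in control and 0, 0 and 0 in Eed cKO, too few to be tested; a fit with no filter on low counts gave an edgeR adjusted p of 0.439. The 8 counts of control 1 equal 0.299 CPM, with an exact Poisson 95% interval of 0.129 to 0.589 CPM. Over the 3 Eed cKO libraries a count of 0 allows up to 0.0411 CPM at the floor of 3 counts, against 0.108 CPM pooled over control. Of the 9 pooled control counts 8 came from control 1, and control 2 and control 3, at 0.0319 and 0 CPM, lay below 0.0411 CPM. These limits allow for counting error alone, because amplified RNA does not give independent molecules. Eed cKO 1 had 0 Cd207 counts beside 5179 Cd74 counts and 675 Ptprc counts, and its floor of 3 counts equals 0.109 CPM. Control 1 had 8 Cd207 counts beside 6657 Cd74 counts. Which cells the Cd74 counts came from was not tested.

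**Figure D1:**
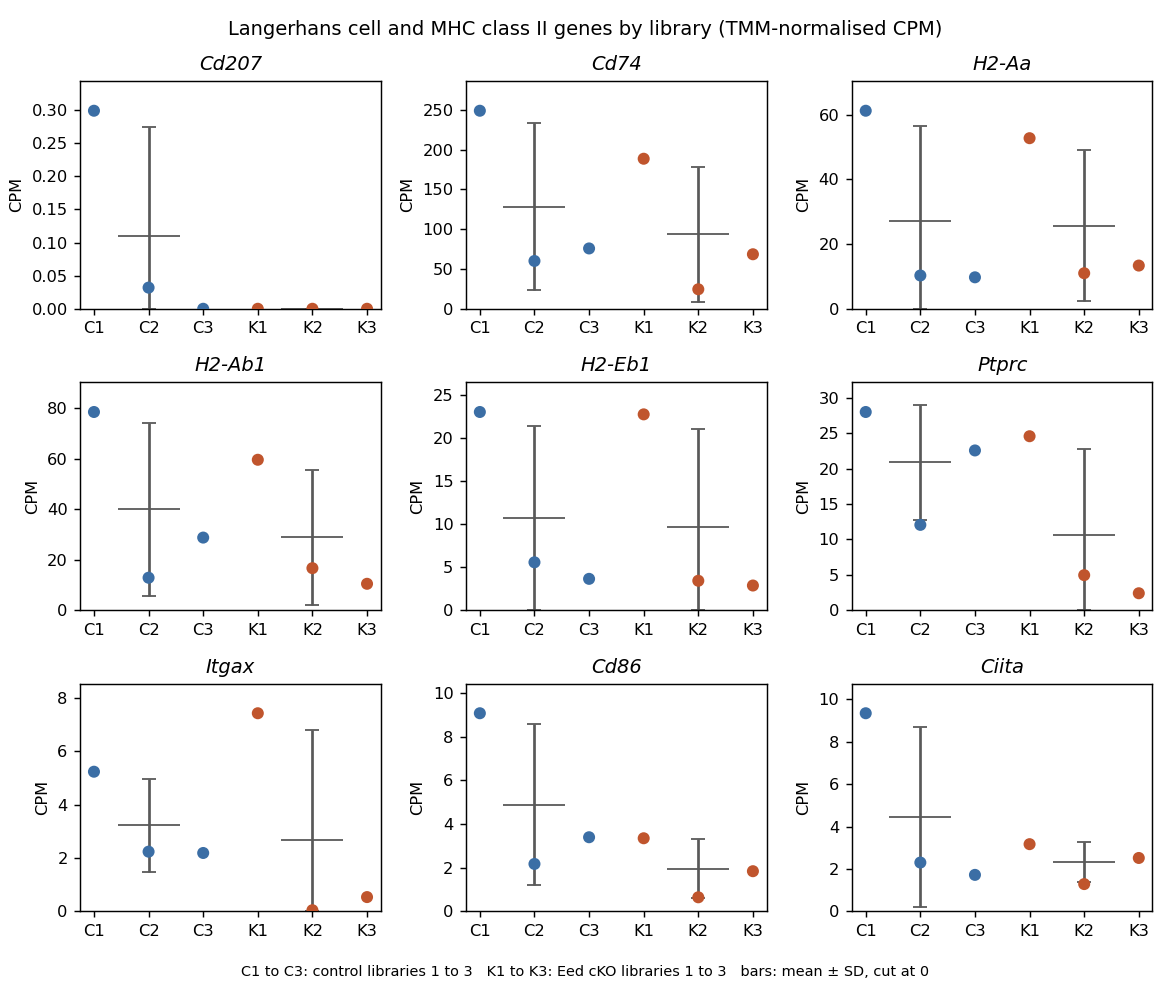
TMM-normalised CPM (vertical axis, linear from 0) of the 9 genes in each of 3 control libraries (C1 to C3, blue) and 3 Eed cKO libraries (K1 to K3, orange), with the group mean and SD as bars. Control 1 was the highest library for 8 of the 9 genes and Eed cKO 1 for Itgax, and no gene had groups that were apart.

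Levels between genes were compared per kilobase of annotated exon (GENCODE M21). That length takes in every annotated exon of a gene, 18313 bases for Ptprc, 9535 for Ciita and 3661 for Cd86. It can exceed the length of any 1 transcript, and the order below depends on it. In CPM per kilobase, averaged over the 6 libraries, the order was Cd74 at 66.1, H2-Ab1 at 13.4, H2-Aa at 6.95, H2-Eb1 at 5.26, Cd86 at 0.933, Ptprc at 0.860, Itgax at 0.613, Ciita at 0.355 and Cd207 at 0.0363. The ranges of all neighbours in this order overlapped over libraries. Within single libraries, Cd74 was above H2-Ab1, and H2-Ab1 above H2-Aa, in 6 of 6 libraries. H2-Aa was above H2-Eb1 in 5 of 6, Ptprc above Itgax in 5 of 6, Itgax above Ciita in 4 of 6 and Cd86 above Ptprc in 2 of 6, so the order within the last 4 tested genes was not fixed.

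The spread between libraries of 1 group was wide for these genes. For Cd74 the SD of log2 CPM was 1.10 in control and 1.47 in Eed cKO, where the 2905 other tested genes within 2-fold of its mean level had median SDs of 0.18 and 0.20. For H2-Eb1 the SDs were 1.38 and 1.64, against medians of 0.33 and 0.34 over 3579 genes of like level. Ptprc varied unequally, with an SD of 0.63 in control and 1.71 in Eed cKO, against 0.28 and 0.29 over 4055 genes. Ciita went the other way, with 1.28 in control and 0.65 in Eed cKO, against 0.55 and 0.51.

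Whether the genotypes differ was tested in edgeR's quasi-likelihood fit over all 14700 genes that passed filterByExpr, with Benjamini-Hochberg adjustment and a threshold of 0.05. Of the 9 genes, 8 were tested and 0 were called in either direction by edgeR, DESeq2 or limma-voom, though DESeq2 gave no p-value for Itgax. In edgeR 0 of the 8 had an unadjusted p under 0.05, against 14.9% of all tested genes. The unadjusted p was 0.047 for Cd86 in DESeq2 and 0.0248 for Ptprc in limma-voom. Across all tested genes, 4.21% were called, 3.39% higher and 0.816% lower in Eed cKO. None of the 8 had groups that did not overlap, against 9.24% of all tested genes with Eed cKO below control and 11% with it above. All 8 log2 fold changes (Eed cKO over control) were negative, as were 51.3% of those of all tested genes. Their median was -0.46, against -0.01 over all tested genes.

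The largest fitted difference was that of Cd86, with a log2 fold change of -1.32 (95% interval -2.76 to 0.11; edgeR adjusted p 0.390). Ptprc followed with -0.97 (-2.27 to 0.34; edgeR adjusted p 0.524) and Ciita with -0.94 (-2.34 to 0.47; 0.590). The class II chains and Cd74 lay nearer to 0, with H2-Ab1 at -0.47 (-1.76 to 0.83), Cd74 at -0.45 (-1.70 to 0.80), H2-Eb1 at -0.14 (-1.73 to 1.44) and H2-Aa at -0.07 (-1.48 to 1.33). Itgax had the widest interval, -0.26 (-2.47 to 1.95). Each interval spans 0 and also holds a 2-fold decrease.

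Single libraries set the sign of most of these differences. Without control 1 the log2 fold change turned positive for Cd74 (0.46), H2-Aa (1.36), H2-Ab1 (0.48), H2-Eb1 (1.08), Itgax (0.28) and Ciita (0.21). Without Eed cKO 2 it turned positive for Cd74 (0.02), H2-Aa (0.31), H2-Eb1 (0.28) and Itgax (0.32), and without Eed cKO 3 for H2-Aa (0.24), H2-Eb1 (0.29) and Itgax (0.22). Ptprc and Cd86 stayed negative in all 6 fits that leave out 1 library, at -2.51 to -0.50 and -1.98 to -0.52. Ptprc was called lower without Eed cKO 1 (log2 fold change -2.51, edgeR adjusted p 0.00450) and in none of the other 5 such fits, where the edgeR adjusted p reached 0.821.

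**Figure D2:**
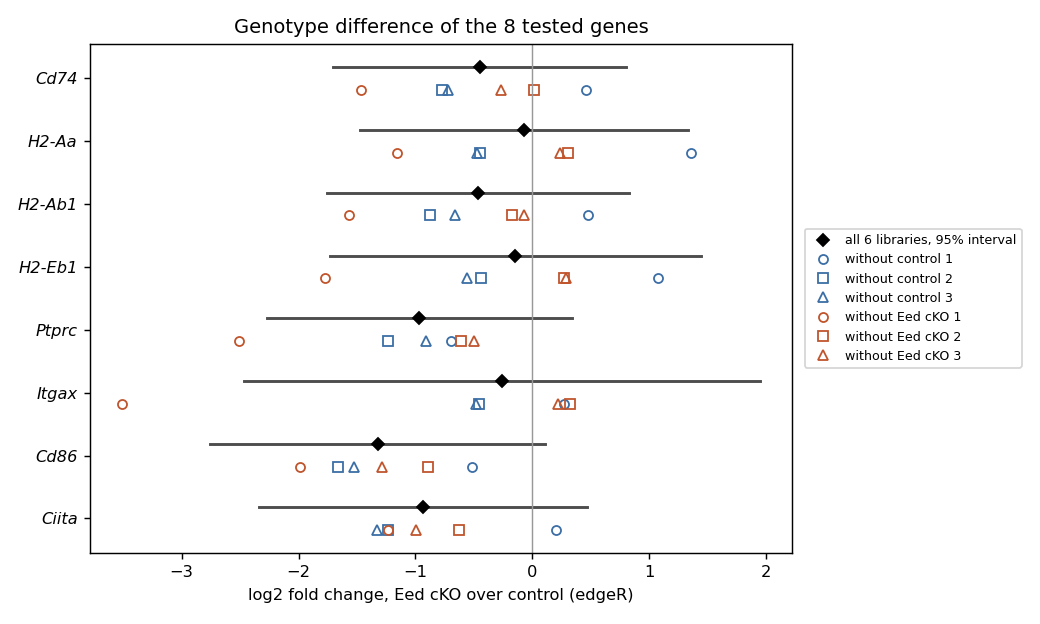
Log2 fold change, Eed cKO over control, of the 8 tested genes (horizontal axis), with all 6 libraries (diamond with its 95% interval) and with each library left out in turn (open symbols). The fit without Eed cKO 1 lay lowest for 7 of the 8 genes, reaching -3.51 for Itgax, and the fit without control 1 was positive for 6 genes.

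Counts of 2 genes from the same library can be set against each other without any scaling between libraries. Per Ptprc count there were 8.89, 4.99 and 3.36 Cd74 counts in control and 7.67, 4.97 and 28.9 in Eed cKO. Eed cKO 3 stood apart, with 1416 Cd74 counts on 49 Ptprc counts. For H2-Ab1 the ratios to Ptprc were 2.81, 1.06 and 1.27 in control and 2.43, 3.37 and 4.39 in Eed cKO, and for H2-Aa 2.19, 0.854 and 0.431 against 2.15, 2.23 and 5.63. The class II chains per Ptprc were therefore at or above the highest control ratio in Eed cKO 2 and Eed cKO 3 for these genes, while the ratio in Eed cKO 1 lay just below that of control 1. H2-Eb1 had ratios of 0.824, 0.462 and 0.161 in control and 0.927, 0.691 and 1.20 in Eed cKO, which overlapped. Between the class II chains, H2-Aa per H2-Ab1 count ran from 0.338 in control 3 to 1.28 in Eed cKO 3, so these partner genes did not keep a fixed ratio either. These ratios are descriptions, since 3 libraries against 3 cannot give an exact permutation p under 0.1.

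Itgax per 100 Ptprc counts was 18.7, 18.6 and 9.69 in control and 30.2, 0.813 and 22.4 in Eed cKO, so Itgax was low relative to Ptprc in Eed cKO 2 and not in Eed cKO 3. Cd86 per 100 Ptprc counts was 32.4, 18.04 and 15.1 in control and 13.6, 13.01 and 77.6 in Eed cKO. With the 49 Ptprc counts of Eed cKO 3 as denominator, its ratios carry more counting error than those of the other libraries.

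**Figure D3:**
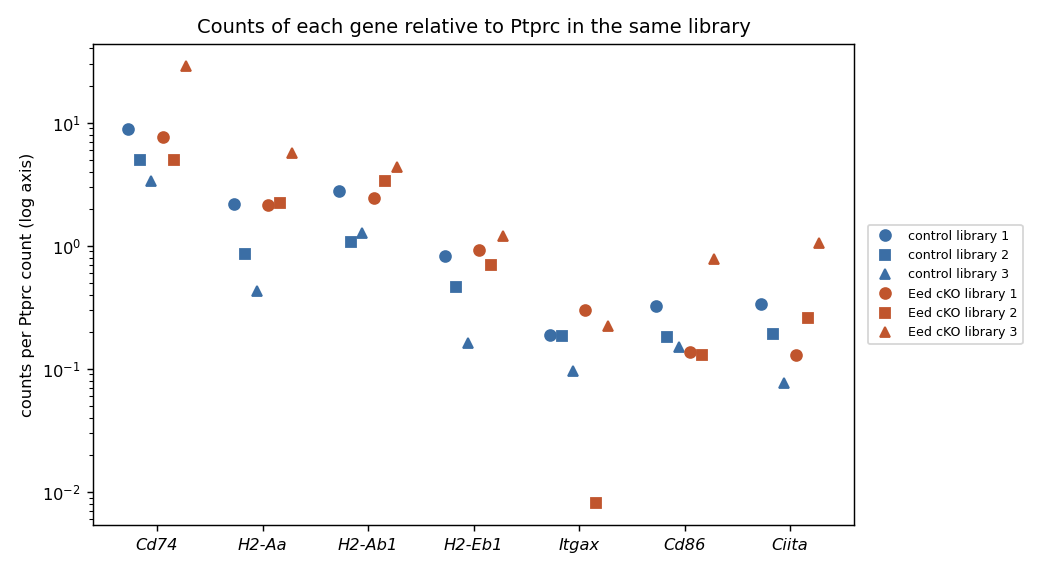
Counts of 7 genes per Ptprc count in the same library (vertical log axis), for control libraries (blue) and Eed cKO libraries (orange) 1 to 3. Eed cKO 3 was highest for 6 of the 7 genes, with 28.9 Cd74 counts per Ptprc count, and Eed cKO 2 was lowest for Itgax.

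None of the other genes of class II presentation was called. Of 18 listed symbols in the files 12 were tested and 0 called by edgeR, 2 at an unadjusted p under 0.05, with 6 log2 fold changes on each side of 0 and a median of -0.01. Ifi30, a thiol reductase that unfolds antigen in lysosomes, was at 43.7, 52.5 and 45.2 CPM in control and 48.1, 23.7 and 22.7 CPM in Eed cKO (log2 fold change -0.58, edgeR adjusted p 0.331). It was low in the same 2 Eed cKO libraries as Ptprc, and was called without Eed cKO 1 (edgeR adjusted p 0.0166). Ctsd, a lysosomal protease made in most cells, was at 200 to 261 CPM in control and 246 to 328 CPM in Eed cKO. H2-DMa, a chain of the peptide-loading catalyst, was at 10.3, 4.34 and 6.32 CPM in control and 9.14, 3.37 and 5.18 CPM in Eed cKO, again highest in the first library of each group.

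Of 14 regulators of class II promoters and of Ciita, all were tested and 0 called by edgeR (2 at an unadjusted p under 0.05, median log2 fold change -0.12). Rfx5, a subunit of the RFX complex that binds class II promoters, was at 43.7, 25.4 and 40.7 CPM in control and 60.7, 49.6 and 48.9 CPM in Eed cKO (log2 fold change 0.54, edgeR adjusted p 0.265). The groups did not overlap but the difference was not called. Irf1, an interferon-induced factor that acts on Ciita, was at 17.4, 4.63 and 8.98 CPM in control and 4.33, 7.02 and 2.71 CPM in Eed cKO (edgeR adjusted p 0.279). The NF-Y subunit genes Nfya, Nfyb and Nfyc had log2 fold changes of -0.29, -0.12 and -0.29, with edgeR adjusted p of 0.598, 0.867 and 0.660.

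Of 21 tested genes for the formation and residence of Langerhans cells, 3 were called higher, 0 lower and 18 were not called, beside 3.39% of all tested genes called higher. Keratinocytes express many of them, and which cells the change came from was not tested. Itgb8, an integrin chain that releases active TGF-β, rose from 1.59 ± 0.757 to 16.2 ± 3.61 CPM (SD, n = 3 each; log2 fold change 3.35, edgeR adjusted p 0.000359), and was called in 6 of 6 fits that leave out 1 library. Itgb6, a second such chain, was at 23.0 ± 10.9 CPM in control and higher, at 52.0 ± 5.86 CPM, in Eed cKO (log2 fold change 1.17, edgeR adjusted p 0.0276). Leaving out control 1 or 3, or Eed cKO 2 or 3, ended the Itgb6 call (edgeR adjusted p up to 0.133). Tgfbr2, a TGF-β receptor, went up from 188 ± 6.02 CPM in control to 289 ± 31.7 CPM in Eed cKO (log2 fold change 0.62, edgeR adjusted p 0.0364). Leaving out any library but Eed cKO 1 ended the Tgfbr2 call (edgeR adjusted p up to 0.169). Runx3, a factor that Langerhans cells require, showed the library pattern of class II genes, at 20.3, 6.77 and 6.25 CPM in control and 22.2, 6.74 and 4.31 CPM in Eed cKO.

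Among 15 tested marker genes of Langerhans cells outside the 9, 1 was called higher, 0 lower and 14 were not called, beside 3.39% of all tested genes called higher. The gene that rose was Mfge8, a secreted bridge for apoptotic cells that is not limited to leukocytes, from 17.1 ± 3.13 to 38.6 ± 2.77 CPM (SD, n = 3 each; log2 fold change 1.17, edgeR adjusted p 0.00529), also called in 6 of 6 fits that leave out 1 library. Of the 15, 13 had a negative log2 fold change (median -0.23), as did 51.3% of all tested genes. Epcam, carried by Langerhans cells and keratinocytes and used for the sort, was at 64.5, 104 and 77.4 CPM in control and 120, 151 and 148 CPM in Eed cKO (log2 fold change 0.77, edgeR adjusted p 0.0433). Within each group Epcam was lowest in library 1, where Cd74 was highest, and the same 4 omissions as for Itgb6 ended its call (edgeR adjusted p up to 0.171).

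Markers of other leukocytes were measured in the same libraries, and their part in the results was not tested. Of 21 pan-leukocyte genes all were tested and 0 called by edgeR, DESeq2 or limma-voom. In edgeR 5 had an unadjusted p under 0.05, and 20 had a negative log2 fold change (median -0.65). Over all tested genes the shares were 14.9% and 51.3%. Without Eed cKO 1, 6 of the 21 were called lower, as were 118 of all 15029 genes tested in that fit. Their summed level was 289 to 373 CPM in control and 164 to 332 CPM in Eed cKO, of which Arhgdib alone made up 49.9%. Without Arhgdib the sums were 260, 90.7 and 216 CPM in control and 193, 48.2 and 61.1 CPM in Eed cKO, with Eed cKO 1 among the control libraries. Lcp1, the leukocyte plastin, was at 47.5, 17.3 and 53.6 CPM in control and 28.3, 4.17 and 7.74 CPM in Eed cKO (log2 fold change -1.55, edgeR adjusted p 0.167). Laptm5, a lysosomal protein of blood cells, was at 58.2, 14.0 and 44.4 CPM in control and 35.3, 6.34 and 7.55 CPM in Eed cKO (log2 fold change -1.24, edgeR adjusted p 0.335). Both were lowest in Eed cKO 2 and Eed cKO 3, as Ptprc was.

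Of 20 tested monocyte and macrophage genes, 3 were called lower, 0 higher and 17 were not called, and all 20 had a negative log2 fold change (median -1.34), beside 0.816% of all tested genes called lower and 51.3% with a negative value. Their summed level was 345, 156 and 347 CPM in control and 196, 71.9 and 116 CPM in Eed cKO. Cx3cr1, a chemokine receptor of monocytes and of Langerhans cell precursors, was at 7.48, 7.41 and 8.003 CPM in control and 2.11, 2.81 and 0.968 CPM in Eed cKO (log2 fold change -1.95, edgeR adjusted p 0.0281), with Eed cKO 1 low as well. Leaving out any library but Eed cKO 2 ended the Cx3cr1 call, with an edgeR adjusted p of at most 0.0988. Of the list, 0 genes were called lower without control 1, and 1 gene when control 3, Eed cKO 2 or Eed cKO 3 was left out. The other 2 called genes were Cysltr1 (log2 fold change -1.68), lost without control 1, control 2 or Eed cKO 2, and F13a1 (-1.70), lost without any 1 library other than control 2. Csf1r, the receptor for the Langerhans cell survival signal Il34, was at 84.9, 22.0 and 60.1 CPM in control and 60.4, 10.1 and 16.7 CPM in Eed cKO (log2 fold change -0.93, edgeR adjusted p 0.479), and was called lower without Eed cKO 1 (edgeR adjusted p 0.0185).

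**Figure D4:**
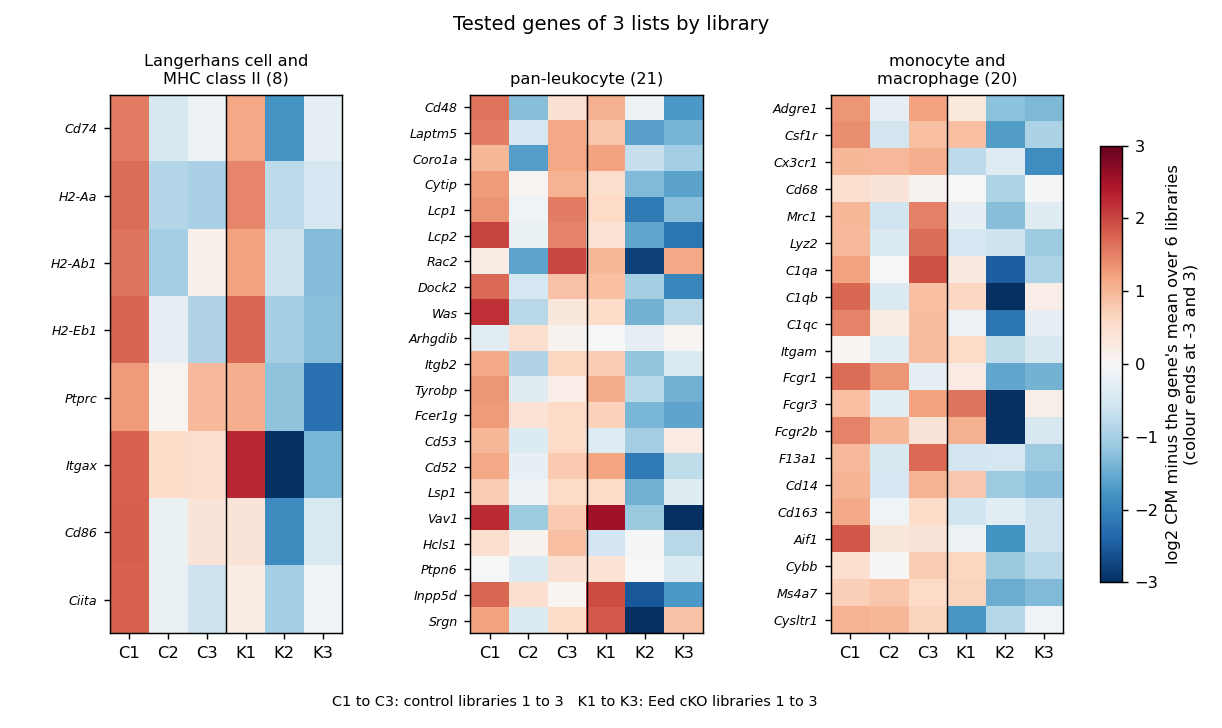
Log2 CPM minus each gene's mean over 6 libraries (colour) for the tested genes of 3 lists (rows), in control libraries (C1 to C3) and Eed cKO libraries (K1 to K3). The median over the genes described here was 1.71 in control 1 and 1.18 in Eed cKO 1, and -1.12 and -0.88 in Eed cKO 2 and Eed cKO 3; pan-leukocyte genes had medians of 1.27, 0.75, -1.32 and -1.02 in the same libraries.

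In control 3 the medians of the lists differed. There the median centred log2 CPM was 0.00 for the 8 tested genes described here, 0.65 for pan-leukocyte genes and 0.91 for monocyte and macrophage genes. Ptprc followed the leukocyte lists in control 3, whereas H2-Aa and H2-Eb1 were as low there as in control 2. The partner chain gene H2-Ab1 was not, at 12.8 CPM in control 2 and 28.7 CPM in control 3. Centred values in control 3 were 0.15 for H2-Ab1, 0.40 for Cd86 and 0.53 for Itgax, and -0.15 for Cd74 and -0.63 for Ciita. The 8 genes were thus mixed in that library. Endothelial genes also varied by library. Over 10 tested ones the median centred log2 CPM was 1.33, -1.35 and 1.14 in control and 0.88, -0.18 and -0.55 in Eed cKO. Of these 10, 0 were called by edgeR, beside 4.21% of all tested genes. Over 12 fibroblast genes the medians ran from -0.23 to 0.23, and over 5 melanocyte genes the highest was 1.53, in Eed cKO 3. Which cells these counts came from was not tested. Of the 12 tested fibroblast genes 1 was called higher and 0 lower by edgeR, beside 3.39% of all tested genes called higher. It was Col6a1, at 35.9 ± 1.74 CPM in control and 61.1 ± 3.10 CPM in Eed cKO (SD, n = 3 each, log2 fold change 0.77, edgeR adjusted p 0.0229). Of 5 tested melanocyte and 7 tested mast cell and granulocyte genes 0 were called by edgeR. Lymphocyte and dermal dendritic cell lists held genes at 0 beside genes that were well detected. The B cell genes Ms4a1 and Pax5 had 0 counts in all 6 libraries, and the 8 B cell genes summed to 3.19 to 6.54 CPM in control and 2.03 to 3.75 CPM in Eed cKO, with 0 of 4 tested genes called by edgeR and 0 at an unadjusted p under 0.05. The T cell receptor gene Cd3e, at 0.748, 0 and 0.351 CPM in control and 0, 0.241 and 0 CPM in Eed cKO, was too low to be tested. Of the 24 listed T cell and lymphocyte genes 8 were tested and 0 called by edgeR (2 at an unadjusted p under 0.05), with summed levels of 332 to 393 CPM in control and 301 to 378 CPM in Eed cKO, of which Gata3, also a keratinocyte factor, made up 77.2%. In that list Thy1, a surface protein that fibroblasts also carry, was at 28.4 to 28.9 CPM in control and 32.7 to 53.2 CPM in Eed cKO, and Cd5, a T cell surface receptor, at 20.2 to 23.4 and 11.8 to 17.0 CPM. The dermal dendritic cell genes Xcr1 (18, 0 and 2 counts in control) and Clec9a (3, 0 and 0) had no Eed cKO count. Both were too low to be tested, and most of their counts came from control 1. Flt3 of the same list went the other way, with 21, 9 and 0 counts in control and 45, 3 and 21 in Eed cKO (edgeR adjusted p 0.701, not called). Of the tested genes of the list, 3 had a negative and 2 a positive log2 fold change. The negative ones were Itgae (-1.38, edgeR adjusted p 0.226), Clec4n (-2.27, 0.380) and Siglech (-1.17, 0.686). The positive ones were Flt3 (1.36) and Fscn1 (0.71, edgeR adjusted p 0.0576). Groups did not overlap for Itgae and Clec4n, lower in Eed cKO, and for Fscn1, higher. Over all tested genes those shares were 9.24% and 11%. Of the 5 tested genes of that list 0 were called by edgeR (2 at an unadjusted p under 0.05), and the list summed to 30.9 to 38.8 CPM in control and 43.9 to 52.6 CPM in Eed cKO, of which Fscn1 made up 83.7%. Without Fscn1 the sums lay the other way, at 11.1, 8.18 and 8.82 CPM in control and 6.92, 1.72 and 3.53 CPM in Eed cKO.

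Of 10598 other tested genes with at least 5 CPM on average, those with a library profile most like that of Ptprc were Fmnl1, Myo1g, Dock2, Fcer1g and Plekho1, with root mean square differences of 0.22 to 0.43 on the centred log2 scale over 6 libraries. Fmnl1 was at 15.0, 6.13 and 10.1 CPM in control and 16.7, 2.05 and 1.11 CPM in Eed cKO. Those most like Cd74 were Cxcl2, Fxyd5, Dmtn, Dock10 and Pym1, with differences of 0.36 to 0.44. Cxcl2, a neutrophil-attracting chemokine, was at 28.9, 5.69 and 8.78 CPM in control and 12.8, 3.73 and 6.68 CPM in Eed cKO. None of these 10 genes was called by edgeR (adjusted p 0.243 to 0.974). Among the 9 genes themselves, Cd74 was nearest to Cd86 (0.42) and Ptprc nearest to H2-Ab1 (0.72), and Itgax was at least 1.14 from every other tested one.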

How the data were processed

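The authors deposited raw counts per gene symbol, 1 file for each of 3 control and 3 Eed cKO libraries, with no normalization. Per the labels' protocols, RNA was reverse transcribed, amplified and read from 1 end. Tools listed in the submitters' processing notes, without their roles, are HTSeq 0.6.1, TopHat2 2.0.13, DESeq2 1.6.3 and Cufflinks 2.2.1, on mm10. The sources used here do not give the annotation, strand setting or filters. No 2 libraries held identical values.

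Counts were fitted in R 4.3.3 with edgeR 4.0.16 (filterByExpr, which kept 14700 genes and removed 9753; TMM; quasi-likelihood F-test on genotype). Fold changes set Eed cKO over control on the log2 scale, and their 95% intervals use the fit's standard errors and degrees of freedom. DESeq2 1.42.0, limma-voom (limma 3.58.1), RLE and upper-quartile scaling, other filters, the replicate number as a block and fits with 1 library left out were alternatives. Log2 CPM used a prior count of 2. Gene positions and exon lengths are from GENCODE M21, and figures were drawn with matplotlib 3.10.9.

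The genes, lists and tests were chosen with earlier results of these data known. The naming rule allowed the 9 genes, any called gene and up to 4 genes with the smallest p-values of each other list, and the 5 nearest profiles to Ptprc and to Cd74. Nfyb, Nfyc, Laptm5, Runx3, H2-DMa, H2-Ea-ps, Csf1r, Il34, Csf1, Arhgdib, Gata3 and Rn45s lie outside it. So do Ms4a1, Pax5, Cd3e, Xcr1, Clec9a and Flt3, and all of these were picked with their values in view. One listed gene is not reported here.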

Additional observations from a re-analysis of the deposited data

How the results depend on the processing

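The 8 tested genes gave 112 log2 fold changes over 14 alternatives, of which 96 kept the sign of the fit with all libraries and 16 did not; Ptprc and Cd86 were negative in all 14. H2-Aa turned positive with limma-voom (0.18), with the replicate block (0.10) and without both libraries numbered 1 (0.29). With 1 library left out, log2 fold changes ran from -1.47 to 0.46 for Cd74, -1.15 to 1.36 for H2-Aa, -1.56 to 0.48 for H2-Ab1, -1.78 to 1.08 for H2-Eb1, -3.51 to 0.32 for Itgax and -1.33 to 0.21 for Ciita. The cause was not tested. None of the 8 was called higher under any alternative; the number called lower went from 0 to 1 (Ptprc) with the replicate block (edgeR adjusted p 0.0307), without both libraries numbered 1 (0.0112) and, within the range of 0 to 1 over fits that leave out 1 library, without Eed cKO 1. Leaving out both libraries numbered 1 was chosen after seeing that they held the highest levels. Over all genes, 499 were called higher and 120 lower; 257 were lower without a filter on low counts, 764 higher and 270 lower in DESeq2, and 269 lower with the replicate block. With 1 library left out the counts were 302 to 456 higher and 35 to 118 lower. Monocyte and macrophage genes called lower numbered 3 with all libraries, 2 with upper-quartile scaling and with limma-voom, 5 in DESeq2, 7 without a filter, 8 with the replicate block and 0 to 4 with 1 library left out; pan-leukocyte genes numbered 0, and 3 without a filter, 4 with the replicate block, 6 without Eed cKO 1 and 3 without both libraries numbered 1. Same-numbered libraries correlated in their deviations from the group means by 0.23, 0.11 and -0.00, and differently numbered ones by -0.19 to 0.10. These values do not decide whether the numbers pair libraries. No source used here states such a pairing, so the block was kept as an alternative. The summed level of the 9 genes, Eed cKO mean over control mean, was 0.733. It was 0.734 to 0.740 under other scalings and without Cd74, but turned to 1.38 without control 1 and was 0.344 without Eed cKO 1 and 0.575 to 0.969 without any 1 of the other libraries, values added after seeing the data. Depth limits Cd207, and Itgax in Eed cKO 2 and Eed cKO 3.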

Other observations

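Of 12 tested genes for signals that keratinocytes send to leukocytes, 1 was called higher, 0 lower and 11 were not called by edgeR. Of all tested genes 3.39% were called higher. Tgfa, a ligand of the EGF receptor, rose from 13.1 ± 5.54 to 30.0 ± 5.597 CPM (SD, n = 3 each; log2 fold change 1.20, edgeR adjusted p 0.0425). Leaving out any library but control 1 ended that call (edgeR adjusted p up to 0.188). Ccl2, a chemokine for monocytes, was at 11.3, 3.16 and 4.65 CPM in control and 2.88, 1.56 and 2.23 CPM in Eed cKO (log2 fold change -1.51, edgeR adjusted p 0.161). Il34, the Csf1r ligand on which Langerhans cells depend, was at 19.9, 9.10 and 12.5 CPM in control and 19.1, 12.3 and 11.6 CPM in Eed cKO (log2 fold change 0.05), and the other Csf1r ligand, Csf1, differed by 0.20 on the log2 scale (edgeR adjusted p 0.840). Il34 was highest in the first library of each group, as Cd74 was. Ifng, the main inducer of Ciita outside professional antigen-presenting cells, and Csf2 had 0 counts in all 6 libraries.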
